A study of Canis lupus familiaris with 6 samples.

Results

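Oxidative phosphorylation is carried out in the inner mitochondrial membrane by the complexes of the respiratory chain and by ATP synthase. Complex I (NADH dehydrogenase) and complex II (succinate dehydrogenase) pass electrons to ubiquinone, complex III (the cytochrome bc1 complex) passes them on to cytochrome c, and complex IV (cytochrome c oxidase) hands them to oxygen. The protons pumped on the way drive complex V (ATP synthase). Most subunits are encoded in the nucleus, and a small set is encoded by mitochondrial DNA, so that both genomes supply complexes I, III, IV and V. Epithelial cells of the kidney tubule rely heavily on this pathway for the ATP that salt transport uses.

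The genes described here are those whose name in the array design begins with NDUF, SDH (A to D), UQCR, ATP5 or COX followed by a digit, together with CYC1 and CYCS. The rule used names alone and took 92 of 43603 probes, which stand for 62 genes, each represented by the brightest of its probes. By known role these were 22 genes of complex I, 3 of complex II, 4 of complex III, cytochrome c, 8 nuclear and 3 mitochondrially encoded genes of complex IV, 5 of complex V and 16 assembly factors that share the names. COX1 and COX2 here are the mitochondrial cytochrome c oxidase genes, as their probe positions on chrM show, and not the prostaglandin synthases known by the same names. NDUFA4, first described as a complex I protein, was placed with complex IV, as was its paralog NDUFA4L2.

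The cells were MDCK cells, a line of dog kidney tubule epithelium. Cells of both groups carried mCherry-tagged β-catenin without the N-terminal part that marks it for breakdown (β-cat ΔN) and GFP-tagged RasV12, an active Ras, under a promoter that tetracycline switches on. These β-cat ΔN/RasV12 cells came from dishes that held no other cells (single culture, 3 arrays) or from dishes with 10 β-cat ΔN cells without RasV12 to each one that had it (mix culture, 3 arrays). Tetracycline was given for 24 h, cells positive for GFP were isolated by flow cytometry, and the total RNA of each sample was hybridised to 1 single-colour Agilent array. The labels do not say that the 3 samples of a group came from separate cultures, so p-values measure the spread between these samples, which may be technical.

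The 2 arrays numbered 1 shared a slide (slide 1) and the other 4 arrays shared another (slide 2), so each slide held both groups. The share of spots well above background ran from 61.1% to 65.7%. Of 8 kidney epithelial markers, 7 were on the array by name and all 7 were well above background on every array. Of 8 markers of blood, endothelium and fibroblasts, 4 were so as well (CD3E, CD79A, PECAM1 and PDGFRB). A signal above background therefore does not identify the cell type. Values are normalised log2 signals, the log2 of the background-subtracted signal minus the 75th percentile of that array. They compare 1 probe between arrays and give no order of level between probes. In sorted bulk samples scaled in this way, less RNA per cell and fewer cells that use a gene cannot be told apart.

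To show what the array read, the probes of 7 genes are given 5′ to 3′ in lower case, with their CanFam3.1 positions. They are the 3 mitochondrially encoded subunits of complex IV, the oxygen-regulated isoform COX4I2, the core complex I subunit NDUFS1, ATP5D, which had the lowest change of any tested gene of the pathway, and NDUFA4L2, which was not well above background. The probes of NDUFS1, ATP5D and NDUFA4L2 are 60 bases long but cover 2072, 213 and 159 bases of the genome, as probes across a splice junction do.
COX1 (chrM:5750-5809, plus strand): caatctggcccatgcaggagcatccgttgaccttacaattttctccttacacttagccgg
COX2 (chrM:7655-7714, plus strand): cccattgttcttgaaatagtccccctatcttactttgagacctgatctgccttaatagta
COX3 (chrM:9368-9427, plus strand): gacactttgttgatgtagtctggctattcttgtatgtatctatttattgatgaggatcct
COX4I2 (chr24:21128204-21128263, plus strand): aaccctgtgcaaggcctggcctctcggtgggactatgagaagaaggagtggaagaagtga
NDUFS1 (chr37:14683208-14685279, minus strand): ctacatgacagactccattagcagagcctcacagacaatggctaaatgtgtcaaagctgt
ATP5D (chr20:57548151-57548363, minus strand): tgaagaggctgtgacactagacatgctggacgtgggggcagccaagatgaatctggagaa
NDUFA4L2 (chr10:1363138-1363296, minus strand): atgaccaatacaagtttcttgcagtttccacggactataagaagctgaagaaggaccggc

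Of the 62 genes, 59 were well above background on all 6 arrays and were tested. The other 3, NDUFA1, COX5A and NDUFA4L2, were not well above background on any array. NDUFA1 and COX5A are constitutive subunits of complexes I and IV, and the design took their only probes from expressed sequence tags, at chrX:91886633-91886692 and chr27:42074417-42074476. Whether the probe named COX5A reads that gene was not settled, so its signal is not taken as the level of COX5A. NDUFA4L2 is induced by hypoxia in many cells. No fold is given for these genes, since both groups lay at background.

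No gene of the 59 was called as different between mix and single culture. limma called 0 of 59 at an adjusted p under 0.05, where it called 0.883% of all 26623 tested probes, and the smallest adjusted p of any member was 0.632. At an unadjusted p under 0.05, 0 of 59 were lower and 0 of 59 were higher, against 3.84% and 4.86% of all probes. With the slide as a block, limma again called 0 of 59, where it called 7.2% of all probes, and the smallest adjusted p was 0.0878. In that fit 8 of 59 genes (13.6%) were lower at an unadjusted p under 0.05, against 14.6% of all probes, and 0 were higher, against 11.3%. The 8 were SDHAF1, ATP5S, SDHC, ATP5D, NDUFB5, NDUFV1, COX15 and UQCRFS1. A replicate block, which pairs the arrays of equal number, gave 0 calls among the 59 beside 5.25% of all probes, with a smallest adjusted p of 0.142, and 7 genes lower at an unadjusted p under 0.05, against 12.6% of all probes. The authors' own log2 table, which is centred within each slide, gave 3 calls, all lower (5.08%, against 15.3% of all probes): SDHAF1, SDHC and ATP5S.

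The intervals show how large a difference these arrays leave room for. With the slide block, the 95% intervals of all 59 genes lay within 1 log2 unit of 0, so each excluded a 2-fold difference in that fit. They ran from -0.82, the lower bound of ATP5D, to 0.47, the upper bound of ATP5L. Each interval holds for 1 gene at a time and takes the culture difference to be equal on both slides. It rests on the spread between these samples, which may be technical. For ATP5D the change was -0.95 on slide 1 and -0.22 on slide 2. Without the block, the intervals of 56 of 59 genes lay within 1 log2 unit of 0. The exceptions were COX7B2, ATP5D and NDUFB4, the genes whose signal differed most between slides together with NDUFS8. The SE of a change had a median of 0.12 with the block and 0.19 without it.

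**Figure D1:**
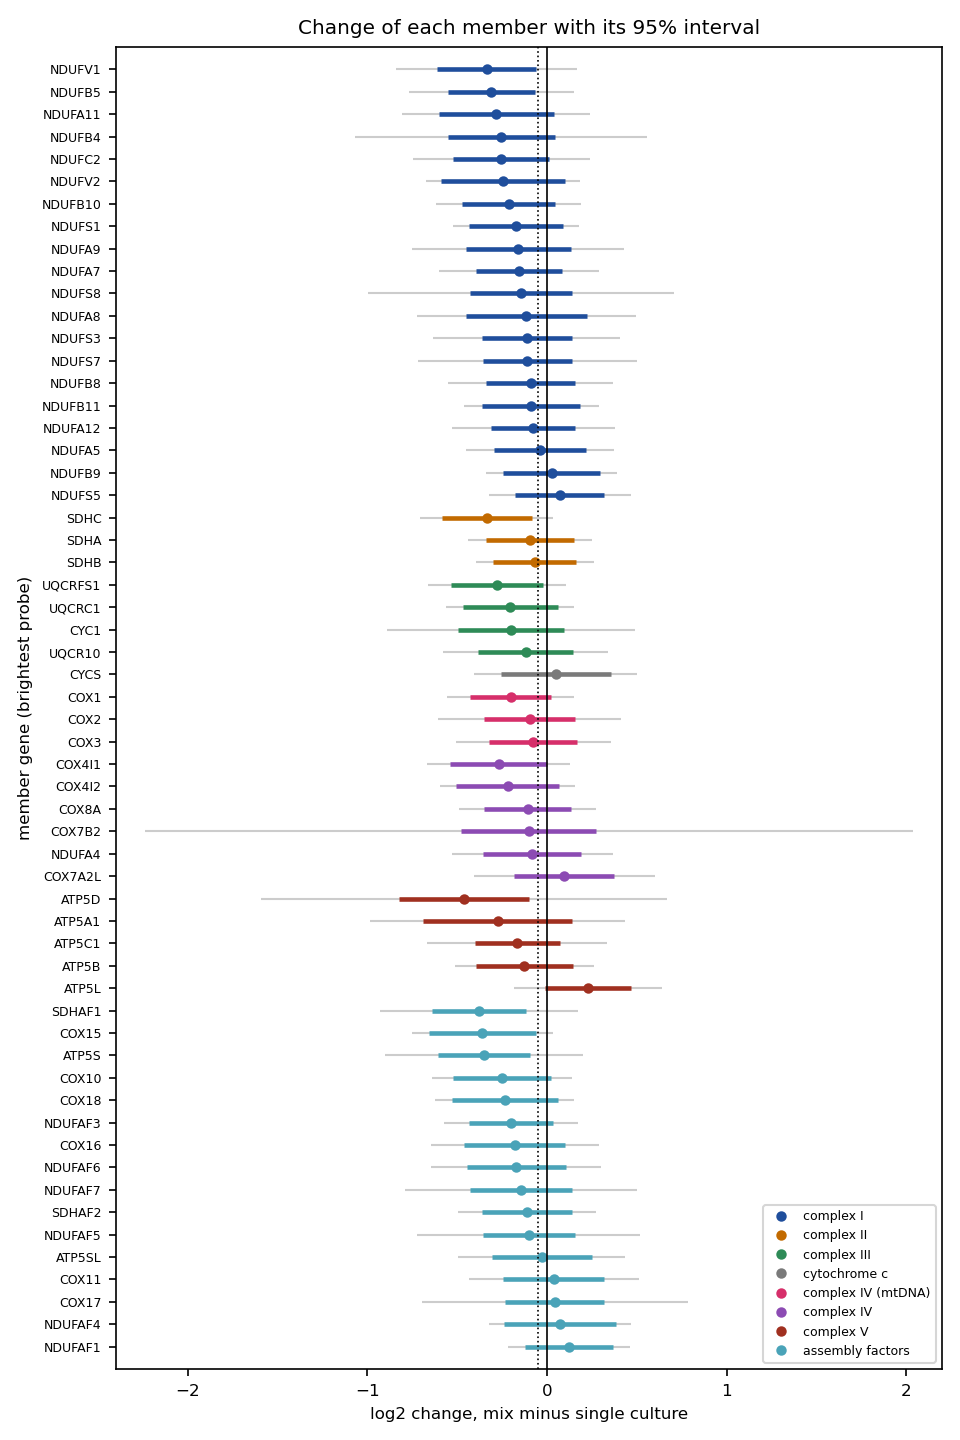
The log2 change of 58 of the 59 tested genes, mix minus single culture, coloured by complex. Coloured bars are 95% intervals with the slide block and grey bars without it, and the dotted line is the median of all tested probes (-0.05). Most points lie left of 0, between -0.46 and 0.23, and coloured bars that clear 0 belong to 8 genes, none of them called after adjustment.

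Although no single gene was called, most changes had the same sign. The change was below 0 for 50 of 59 genes and above 0 for 9, with a median of -0.14, while 58.0% of all tested probes were below 0, with a median of -0.05. The sign was shared by most classes. It was below 0 for 19 of 21 genes of complex I (median -0.14), 3 of 3 of complex II (-0.09), 4 of 4 of complex III (-0.20), 3 of 3 mitochondrially encoded and 5 of 6 nuclear genes of complex IV (-0.10 and -0.11), 4 of 5 of complex V (-0.17) and 12 of 16 assembly factors (-0.16). CYCS had a change of 0.05. These counts and medians depended on single arrays, whose removal also unbalances the slides. With single culture replicate 1 left out, 21 of 59 genes were above 0, and with replicate 2 left out 6 were. The number was 14 and 16 with replicates 1 and 2 of mix culture left out. The median of complex V was 0.0027 without single culture replicate 1 and -0.27 without single culture replicate 3, and that of the mitochondrially encoded genes was 0.054 without mix culture replicate 1 and -0.18 without mix culture replicate 3. That of the assembly factors was -0.067 without single culture replicate 1 and -0.27 without single culture replicate 2. The groups did not overlap for 5 of 59 genes (8.47%) that were lower in mix culture, against 8.66% of all probes, and for 0 that were higher, against 7.85%.

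The size of this common shift differed with the scaling and with the brightness of the probes. Of the 59 genes, 47 lay among the 5325 brightest tested probes. The median change of all these bright probes was -0.10, with 68.0% below 0, and that of the 47 was -0.13. With quantile normalisation, which gives all arrays one distribution of signals, the median of the 59 was -0.06, with 40 of 59 below 0, beside -0.03 for all tested probes and -0.02 for the brightest ones. In the authors' own log2 table the median was also -0.06, with 40 of 59 below 0. The median of all tested probes moved by at most 0.02 under these scalings.

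The shift was larger on slide 1 than on slide 2. The 59 genes had a median change of -0.24 between the 2 arrays of slide 1 and of -0.09 on slide 2. All tested probes had medians of -0.06 and -0.04, and the 5325 brightest ones had medians of -0.16 and -0.06. Of the 59, 45 were below 0 on both slides and 5 were above 0 on both. The change was lower on slide 1 than on slide 2 for 47, whatever its sign. limma's test of whether the change differed between slides called 0 of 59, but it called only 10 of 26623 probes (0.0376%), with 1 array a group on slide 1, so this count says little. At an unadjusted p under 0.05 it had 2 of 59, against 9.14% of all probes.

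**Figure D2:**
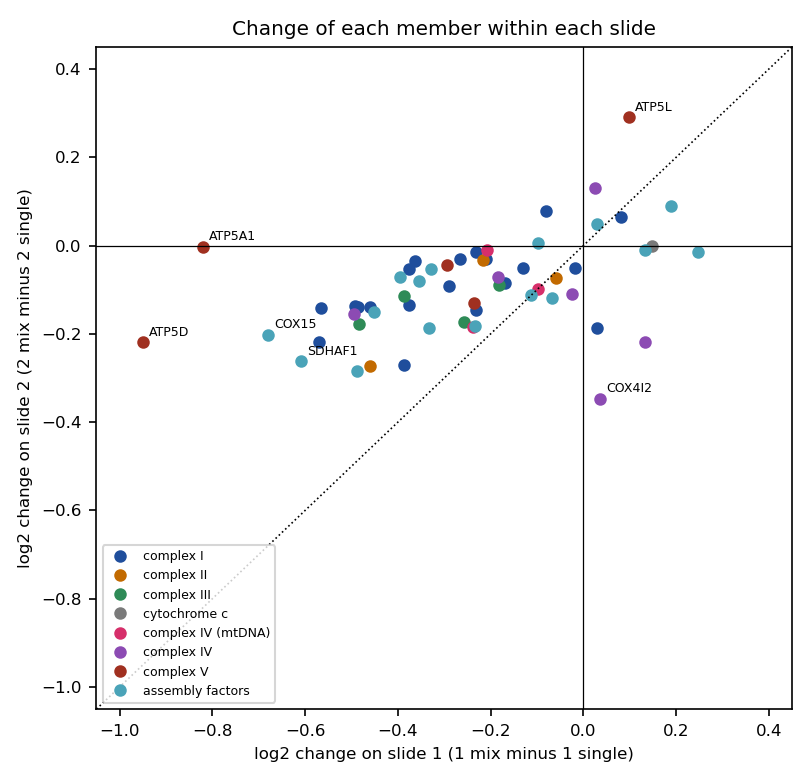
The log2 change of 58 of the 59 genes on slide 1 (1 array a group) against that on slide 2 (2 arrays a group), with the dotted line where both are equal. Most points lie above the line and below 0 on both axes. ATP5D and ATP5A1 lie far left, at -0.95 and -0.82 on slide 1, and at -0.22 and about 0 on slide 2.

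These transcripts differed between slides about as often as all probes did. Slide 1 was scanned at 3 µm and read with another software version than slide 2, scanned at 5 µm, and it held replicate 1 of both groups, so that slide, scan, software and sample set cannot be told apart. With the culture in the model, limma called 28 of 59 genes (47.5%) between slides, 11 higher and 17 lower on slide 2, against 47.2% of all probes. The difference between slides was larger in size than that between cultures for 44 of 59, which was not counted over all probes. COX7B2, an isoform of subunit 7B of complex IV known mostly from testis, differed most. Its signal was 0.73 and 0.86 on the single and mix culture arrays of slide 1, and lay between -2.09 and -1.53 on the 4 arrays of slide 2. The culture difference of COX7B2 was -0.10 (SE 0.91 without and 0.16 with the slide block), which left it among the least certain of the genes.

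**Figure D3:**
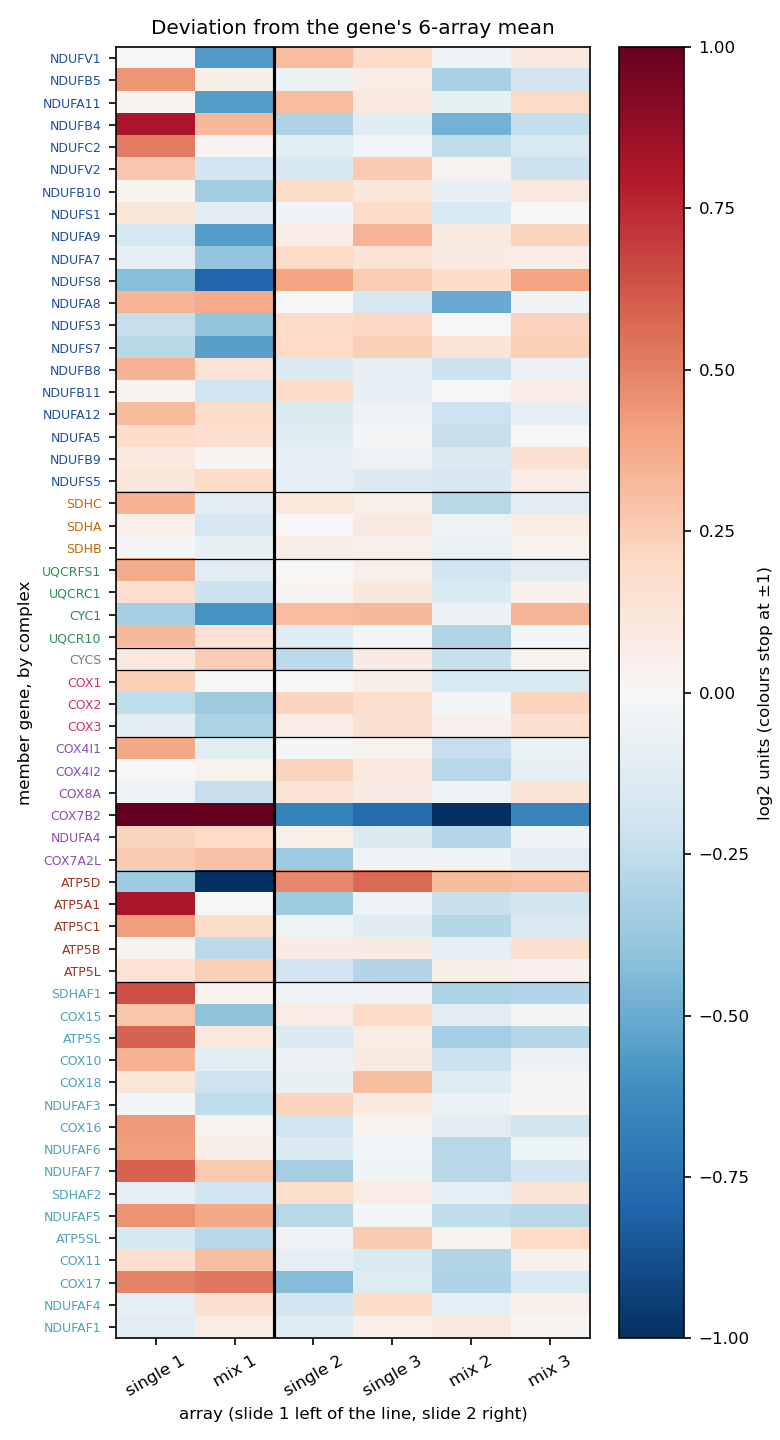
The deviation of 58 of the 59 genes on each array from its mean over 6 arrays, in log2 units, with genes ordered by complex and the black line between slide 1 and slide 2. The colour changes at the line for many genes, such as COX7B2, NDUFB4, NDUFS8 and ATP5D, while within a slide the mix arrays are mostly a little bluer than the single arrays.

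Complex I takes electrons from NADH at NDUFV1, which binds the flavin, and passes them along iron-sulfur clusters held by subunits such as NDUFS1. Among its 21 tested genes the lowest changes were those of NDUFV1 and of NDUFB5, an accessory subunit of the membrane arm. NDUFV1 had signals of 4.67, 4.98 and 4.85 in single culture replicates 1, 2 and 3, and of 4.10, 4.63 and 4.76 in mix culture. Mix culture was lower within each slide, although replicate 3 of mix culture lay above replicate 1 of single culture. The change was -0.34 (SE 0.21, limma adjusted p = 0.785), with an adjusted p of 0.13 under the slide block. All 3 NDUFV1 probes gave like values, from -0.37 to -0.33. NDUFB5 had signals of 4.42, 3.92 and 4.05 in single culture and of 4.03, 3.65 and 3.78 in mix culture, a change of -0.31 (SE 0.19, limma adjusted p = 0.782, with 0.12 under the slide block). It was -0.39 on slide 1 and -0.27 on slide 2, which makes it one of the more even changes of the set.

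The highest changes of complex I were close to 0. NDUFS5, an accessory subunit, had a change of 0.07 (SE 0.17, limma adjusted p = 0.973), and NDUFB9, another accessory subunit, one of 0.03. NDUFS1, the largest subunit, had signals of 2.06, 1.90 and 2.12 in single culture and of 1.83, 1.79 and 1.95 in mix culture, which overlapped, with a change of -0.17 (SE 0.15, limma adjusted p = 0.864). Its other probe gave 0.05.

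Complex II, which is also an enzyme of the citric acid cycle, was read by SDHA, SDHB and SDHC. SDHC, an anchor of the complex in the membrane, had signals of 4.09, 3.85 and 3.79 in single culture and of 3.63, 3.47 and 3.63 in mix culture. Every mix culture array lay below every single culture array. The change was -0.34 (SE 0.16, limma adjusted p = 0.641), or -0.46 on slide 1 and -0.27 on slide 2, with an adjusted p of 0.104 under the slide block. A second SDHC probe with the same 60 bases gave -0.39, and the remaining one, at another position, gave -0.10. SDHA, the flavoprotein that oxidises succinate, had a change of -0.09 (SE 0.15), and SDHB, the iron-sulfur subunit, one of -0.07 (SE 0.14). For SDHB the groups differed by less than the SE, and the change was 0.05 with quantile normalisation.

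Complex III was below 0 for each of its 4 genes. UQCRFS1, the Rieske iron-sulfur protein, had signals of 6.46, 6.09 and 6.14 in single culture and of 5.98, 5.90 and 5.98 in mix culture. These groups did not overlap. The change was -0.28 (SE 0.16, limma adjusted p = 0.759, with 0.165 under the slide block), and its 3 probes gave values from -0.28 to -0.19. UQCRC1, a core protein, had a change of -0.20 (SE 0.15), CYC1, the cytochrome c1 that hands electrons to cytochrome c, one of -0.20 (SE 0.29), and UQCR10, a small subunit, one of -0.12 (SE 0.20). CYC1 was brighter on slide 2 by 0.69 (limma adjusted p = 0.00451 for the slide). CYCS, the soluble carrier between complexes III and IV, had signals of 6.17, 5.80 and 6.14 in single culture and of 6.32, 5.84 and 6.10 in mix culture, values that interleave.

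In complex IV, COX1, COX2 and COX3 form the catalytic core and come from mitochondrial DNA. COX1 had signals of 8.32, 8.08 and 8.15 in single culture and of 8.08, 7.93 and 7.93 in mix culture. The groups met near 8.08 without overlapping, and the change was -0.20 (SE 0.15, limma adjusted p = 0.834), or -0.24 on slide 1 and -0.18 on slide 2. COX2 and COX3 had changes of -0.10 (SE 0.22) and -0.08 (SE 0.18), and COX3 was at 0.0046 with quantile normalisation. Of the nuclear genes, COX4I1, the common isoform of subunit 4, had signals of 6.84, 6.44 and 6.49 in single culture and of 6.34, 6.23 and 6.39 in mix culture. These did not overlap either. Its change was -0.27 (SE 0.17, limma adjusted p = 0.781, with 0.197 under the slide block), and its 3 probes gave between -0.29 and -0.26.

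The isoform COX4I2, which replaces COX4I1 in lung and under low oxygen, was well above background in these cells. Its signals were -2.46, -2.23 and -2.35 in single culture and -2.42, -2.74 and -2.54 in mix culture. The change was -0.22 (SE 0.16, limma adjusted p = 0.827), with 0.04 on slide 1 and -0.35 on slide 2, where COX4I1 was at -0.49 and -0.16. COX7A2L, which takes part in joining complexes III and IV, had a change of 0.10 (SE 0.21), COX8A one of -0.11 (SE 0.16) and NDUFA4 one of -0.08 (SE 0.19, and 0.08 with quantile normalisation).

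Complex V held both the lowest and the highest change of the set. ATP5D, the delta subunit of the stalk that turns within the F1 head, had signals of 3.0, 3.83 and 3.92 in single culture and of 2.05, 3.67 and 3.65 in mix culture. Both arrays of slide 1 were dimmer than those of slide 2, and mix culture replicate 1 was the dimmest of all. The change was -0.46 (SE 0.48, limma adjusted p = 0.906), or -0.95 on slide 1 and -0.22 on slide 2. It was 0.07 without mix culture replicate 1, a fit in which slide 1 holds single culture only. With the slide block the SE was 0.16 and the adjusted p 0.118. ATP5L, the g subunit of the membrane part, had signals of 2.40, 2.07 and 1.97 in single culture and of 2.50, 2.32 and 2.30 in mix culture. Mix culture was higher within each slide, by 0.10 on slide 1 and 0.29 on slide 2, with a change of 0.23 (SE 0.17, limma adjusted p = 0.841, with 0.215 under the slide block).

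The catalytic F1 subunits were in between. ATP5A1, the alpha subunit, had signals of 7.87, 6.70 and 7.01 in single culture and of 7.05, 6.84 and 6.87 in mix culture. Its change of -0.27 (SE 0.30, limma adjusted p = 0.918) rested on slide 1, where it was -0.82, while it was -0.0022 on slide 2. The other ATP5A1 probe gave -0.81 and -0.08 on the same slides. Without single culture replicate 1, the brightest array for this gene, the change was 0.06. ATP5B, the beta subunit that carries the catalytic sites, had a change of -0.13 (SE 0.16), and ATP5C1, the gamma subunit of the rotor, one of -0.17 (SE 0.21). A second ATP5B probe gave 0.07.

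The 16 assembly factors held the genes nearest to a call. SDHAF1, needed to insert iron-sulfur clusters into SDHB, had signals of 5.85, 5.16 and 5.16 in single culture and of 5.24, 4.89 and 4.91 in mix culture. Mix culture was lower within each slide, with changes of -0.61 and -0.26, and the overlap of the groups came from slide 1, where both arrays were brighter. The change was -0.38 (SE 0.23, limma adjusted p = 0.776), while the slide block gave an SE of 0.11 and an adjusted p of 0.0878. Its other probe gave -0.29. ATP5S, known as coupling factor B, had signals of 1.44, 0.72 and 0.93 in single culture and of 0.96, 0.52 and 0.57 in mix culture, a change of -0.35 (SE 0.23, limma adjusted p = 0.80, with 0.102 under the slide block). COX15, which acts in heme A synthesis for complex IV, had signals of 1.30, 1.1 and 1.21 in single culture and of 0.62, 0.91 and 1.00 in mix culture. Its groups did not overlap, with a change of -0.36 (SE 0.17, limma adjusted p = 0.632), the smallest adjusted p of the 59. COX10, the other enzyme of heme A synthesis here, had a change of -0.25 and its 2 probes gave -0.25 and -0.03. The highest change was that of NDUFAF1, a complex I factor, at 0.12 (SE 0.14).

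**Figure D4:**
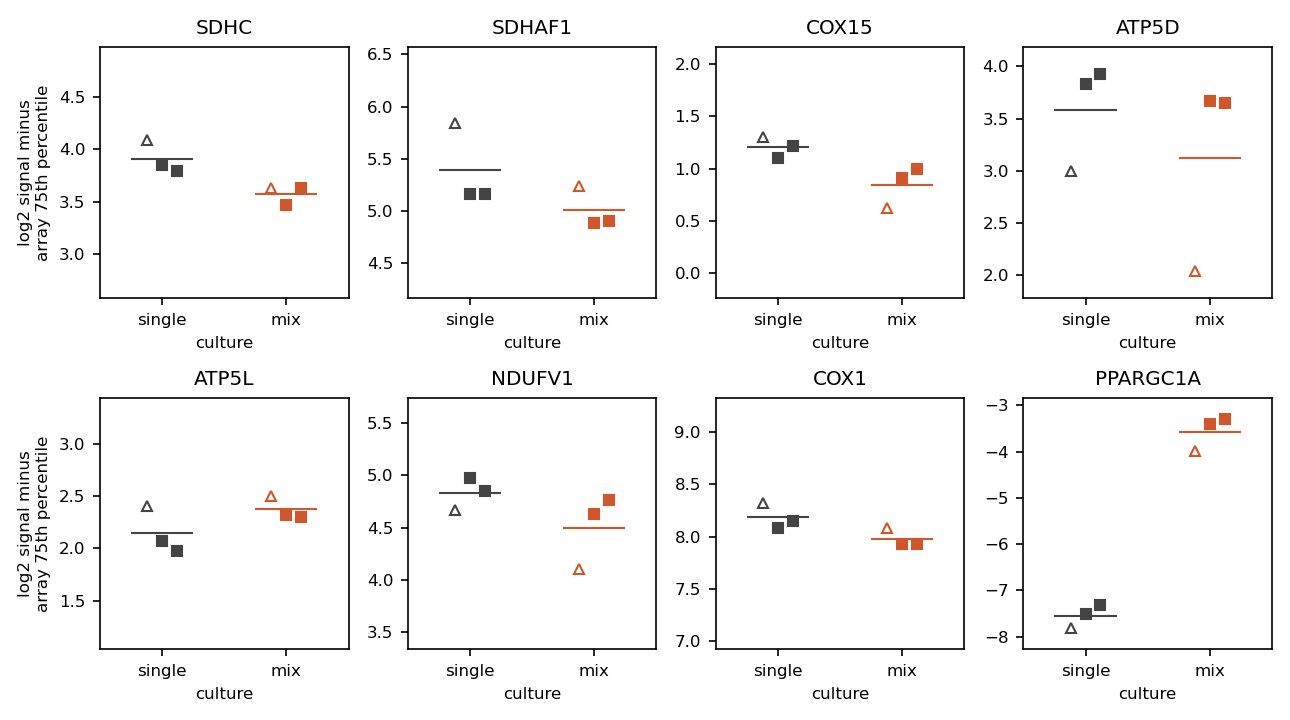
Normalised log2 signal on each array for 7 genes of the pathway and for PPARGC1A, by culture. Open triangles are slide 1, filled squares slide 2 and lines the mean of 3 arrays, and each panel has its own range. In SDHC, COX15 and COX1 the groups do not overlap, and in SDHAF1 and ATP5D the slides are further apart than the cultures. PPARGC1A spans a far wider axis, but its single culture points lie at background, so the gap in that panel is not a measured fold.

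Where a gene had several probes, these gave like values for most genes. For 24 genes with more than 1 tested probe, the range between the probes of a gene had a median of 0.05 log2 units, and it was largest for SDHC, at 0.29. All probes of a gene lay on one side of 0 for 20 of the 24, and NDUFAF4, ATP5B and NDUFS1 were among the exceptions. None of the 89 tested probes of the rule, over all genes, was called without or with the slide block.

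Other lists, of the same organelle and beyond it, are described beside the share of all tested probes called. That share was 0.883% without a block and 7.2% with the slide block. Of 12 mitochondrially encoded subunits read by name (COX1, COX2 and COX3 among them), 0 were called in either fit and 10 were below 0, with a median of -0.09. ND6, the one subunit encoded on the opposite strand of mitochondrial DNA, had a change of -0.29 (SE 0.48), with 0.17 on slide 1 and -0.52 on slide 2, and ND5 one of 0.03, with -0.36 and 0.22. The 62 mitochondrial ribosomal proteins had 0 calls in either fit and a median of -0.11, with 49 below 0. The 19 genes of mitochondrial mass and import, such as CS, the citrate synthase, and VDAC1, an outer membrane channel, had 0 calls and a median of -0.15. The 46 cytosolic ribosomal proteins had 0 calls in either fit and a lower median of -0.22, with 44 below 0, and a median of -0.07 with quantile normalisation. The 7 kidney epithelial markers had a median of -0.14, and CDH1 and CLDN4 were called lower with the slide block.

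Of 21 assembly factors outside the naming rule, 0 were called without a block and 1 with the slide block. The shares of all probes were 0.883% and 7.2%. The called gene was NUBPL, which delivers iron-sulfur clusters to complex I. Its signals were -2.26, -2.78 and -2.80 in single culture and -3.17, -3.29 and -3.27 in mix culture, without overlap. The change was -0.63 (SE 0.19, limma adjusted p = 0.344, with 0.022 under the slide block), or -0.91 on slide 1 and -0.48 on slide 2.

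Among 12 tested regulators of mitochondrial gene expression, the called one was PPARGC1A, the coactivator known to drive transcription of respiratory genes. Its probe at chr3:86281667-86281726 lay above background on no array of single culture and was well above it on every mix culture array, where its normalised signals were -4.0, -3.41 and -3.29. It was at least 3.6-fold higher in mix culture (limma adjusted p = 0.000978, with 5.87e-06 under the slide block). The probe entered the test through mix culture alone, and its single culture values lie at background, so the p-values rest on values that have no order there. The other 4 probes of PPARGC1A were not tested, since each was well above background on at most 1 array. The factors through which PPARGC1A is known to act were not called. NRF1 had a change of -0.20, ESRRA of -0.11, GABPA of -0.10 and TFAM, which binds mitochondrial DNA, of 0.13, and the related coactivator PPARGC1B one of -0.50 (SE 0.17, limma adjusted p = 0.423, with 0.063 under the slide block). ESRRG was not well above background on any array.

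**Figure D5:**
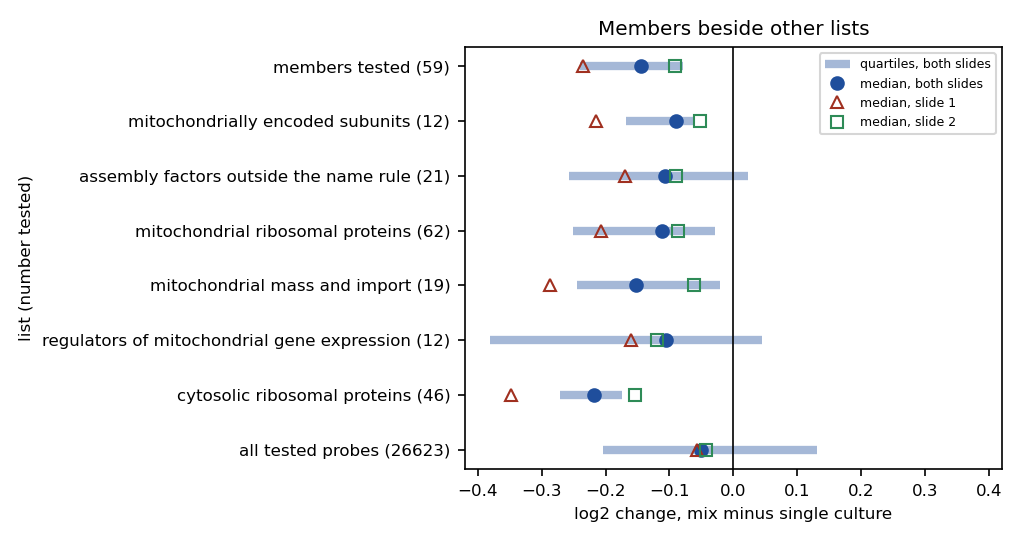
Median log2 change (circles) with quartiles (bars) of the 59 tested genes, 6 other lists and all 26623 tested probes, and the medians on slide 1 (triangles) and slide 2 (squares). All medians lie below 0. Those of the lists are further below 0 on slide 1 than on slide 2, and the cytosolic ribosomal proteins lie lowest, at -0.22.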

How the data were processed

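Groups and replicate numbers came from the sample titles. The authors deposited 1 scanner file per array with spot intensity on a linear scale, from which Agilent Feature Extraction (11.5.1.1 for slide 1, 12.1.1.1 for slide 2) had subtracted the background, per the file headers, without scaling arrays to one another. A table of log2 values, also deposited by the authors, covers the same arrays. Its steps are not given in the sources used here, and it is centred for each probe within each slide. Over probes of slide 2, its columns of mix culture replicates 2 and 3 followed the scanner files of replicates 3 and 2 (correlations 0.999 and 0.993, against 0.457 and 0.459 for the same number), so one of these sources has them exchanged. Both columns belong to mix culture, and group means are not affected. The table served as an alternative. Gene names, probe sequences and CanFam3.1 positions were those of the array design, and exon annotation was not used.

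Outlier spots (5 to 9 per array) and control spots were dropped, spots of a probe averaged, log2 taken and each array's 75th percentile subtracted. Probes well above background on all arrays of at least 1 group were tested (26623). Mix culture was compared with single culture in limma 3.58.1 (R 4.3.3; lmFit, eBayes, two-sided tests, no block), with Benjamini-Hochberg adjustment over all tested probes and calls at an adjusted p under 0.05. The fit without a block was tested on simulated arrays that held no difference between slides. That test says nothing about the blocked fits, or about how many changes would be found with slides as different as these. Lists are described by counts and medians. A bound on a fold set the mix culture mean against the mean, over single culture arrays, of the probe's own signal or, if higher, the lowest signal well above background. With 6 arrays, their number limits the precision.

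Over all probes, same-numbered arrays of both groups deviated together from their group means (correlations 0.801, 0.53 and 0.572). On slide 2, arrays of different numbers did so as well (0.61 and 0.632). These values therefore do not tell a pairing by number from a shared slide. The replicate block took the numbers as pairs, and the main fit used no pairing.

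Members, complexes and lists were chosen with earlier results of these data known. Genes were named in detail if called, if core or isoform subunits by a written list, if among the 2 highest or lowest changes of complexes I, III, IV or V, if in complex II or cytochrome c, or if among the 5 smallest p values with the slide block. COX1, COX2, COX10, COX15, NDUFB4, NDUFS8, NDUFAF1, NDUFAF4, NDUFA1 and the genes of other lists were named after their values were seen. One gene that the rule selects is counted but not reported here. Alternatives were the slide and replicate blocks, each slide alone, other filters and scalings, normexp with an offset of 50 (on the median signal, since not all files hold the mean), the authors' table, the methods' t-test, the mean over a gene's probes, leaving out each array and, chosen after seeing the data, a block with replicates 2 and 3 of mix culture exchanged.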

Additional observations from a re-analysis of the deposited data

How the results depend on the processing

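The count of 0 called genes among the 59 was the same with the slide block, the replicate block (paired by number or with replicates 2 and 3 of mix culture exchanged), slide 2 alone, other filters, other scalings, normexp, the methods' t-test and each array left out. Some of these fits called few probes of any kind, 8 of 26623 with the methods' t-test and 100 with normexp. Without mix culture replicate 2 or 3 or single culture replicate 3, they called between 86 and 94. In these fits 0 of 59 says nothing about stability. The other filters, other scalings and remaining fits with 1 array left out called between 143 and 242 probes. A count of 0 among 59 was likely there as well. The authors' table called 3 of 59, all lower (SDHAF1 at -0.27, SDHC at -0.28 and ATP5S at -0.34), where it called 15.3% of all probes. Its centring within slides was not charged to the degrees of freedom of that fit. At an unadjusted p under 0.05, the methods' t-test gave 2 of 59 genes (9.73% of all probes), normexp 2 (6.41%) and slide 2 alone 2 (17.5%). The median over the 59 lay between -0.24 (slide 1 alone) and -0.06 (quantile normalisation), and between -0.20 and -0.12 with 1 array left out. The nuclear complex IV genes had a median of 0.00032 on slide 1 alone, and of -0.24 to -0.033 with 1 array left out. With 1 array left out, medians ran from -0.22 to -0.093 for complex I, -0.16 to -0.050 for complex II and -0.29 to -0.17 for complex III. Of the 27 named genes tested, 15 changed sign in some alternative, none of them called. ATP5B was at 0.01 in the authors' table and 0.014 with quantile normalisation, COX3 at 0.0067 and 0.0046, NDUFA4 at 0.08 and 0.076, and SDHB at 0.043 and 0.047. On slide 1 alone COX4I2 was at 0.036, COX7B2 at 0.13 and NDUFB9 at -0.081, and on slide 2 alone CYCS was at -0.0013. With 1 array left out, which leaves the slides unbalanced between groups, the change ran from -0.52 to 0.064 for ATP5A1, -0.30 to 0.0027 for ATP5C1, -0.76 to 0.075 for ATP5D, -0.18 to 0.065 for COX3, -0.064 to 0.25 for COX7A2L, -0.99 to 0.67 for COX7B2, -0.42 to 0.042 for CYC1, -0.070 to 0.17 for CYCS, -0.20 to 0.042 for NDUFA4, -0.046 to 0.10 for NDUFB9, -0.013 to 0.17 for NDUFS5 and -0.22 to 0.012 for UQCR10. The cause of these changes of sign was not tested.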
